A study of Mus musculus with 9 samples.

Results

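Liver RNA levels of 10 mouse genes were followed, namely Cd14, the toll-like receptor genes Tlr2 and Tlr4, Lbp, and the NF-κB genes Nfkbia, Tnfaip3, Nfkb1, Nfkb2, Relb and Nfkbiz. They are 10 of the 54532 genes measured and were selected by name, after levels in these libraries were known, from the pathway that runs from the lipopolysaccharide receptor to NF-κB. Because measured values entered the choice, the levels of the 10 genes and the differences between groups are given as a description without a test. All 10 names were found in the table of genes.

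Livers of 9 male C57BL/6 mice aged 5 to 7 weeks were studied by RNA sequencing, with 3 mice in each of 3 groups. Mice of the NC group were normal controls. The study states that all its animals went a night without food before APAP, without naming the NC group, and whether NC mice were fasted or injected is not said outright. The APAP group, which the study also calls vehicle, was given 500 mg/kg acetaminophen (APAP) by intraperitoneal injection after a night without food. The AMSC group had the same dose and then 200000 mesenchymal stromal cells from inguinal fat of C57BL/6 mice by the tail vein, and no cell-free injection is described for the APAP group. Livers of the APAP and AMSC groups were taken at 6 h. The labels of NC replicate 3 carry another date than those of the other 8 libraries, and the AMSC replicates are numbered 2, 3 and 4. Libraries held between 13418921 and 16210930 reads on genes. Levels are in FPKM, fragments per length of the gene, so that levels of different genes can be set side by side. Between libraries they were scaled by size factors and not by reads on genes: the divisor was 1.08 to 1.16 times the reads on genes in NC, 0.909 to 0.949 times in APAP and 0.969 to 0.985 times in AMSC. Scaled to reads on genes instead, the median log2 difference over all genes tested was -0.22 in APAP against NC, 0.06 in AMSC against APAP and -0.14 in AMSC against NC, and all values below are on the scale as deposited unless said otherwise.

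CD14 is a surface protein, best known on macrophages, that takes up lipopolysaccharide from lipopolysaccharide binding protein, the product of Lbp, and hands it to the receptor formed by TLR4 and its partner MD-2. Signals from TLR4, TLR2 and the receptors of TNF and IL-1 converge on the IκB kinase, which marks IκBα, the product of Nfkbia, for destruction and so frees NF-κB to enter the nucleus. NF-κB then raises transcription of its own inhibitors Nfkbia and Tnfaip3 and of its own subunits Nfkb1, Nfkb2 and Relb, so that these genes serve both as parts and as readouts of the pathway. In the liver, Kupffer cells carry much of the receptor side, while hepatocytes secrete lipopolysaccharide binding protein as an acute phase protein.

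Hepatocyte genes dominated all libraries, as the label of the tissue says. The 6 hepatocyte markers Alb, Apoa1, Ttr, Serpina1a, Fgb and Cps1 summed to 40623 FPKM in the NC, 62017 FPKM in the APAP and 50971 FPKM in the AMSC group on average, and Alb was the most abundant of them. By the limma fit described further on, 1 of the 6 (Fgb) was called higher in AMSC against NC (log2 difference 1.60). None was called in the other 2 comparisons. An unadjusted p under 0.05 was seen for 4 in APAP against NC, 3 in AMSC against APAP and 3 in AMSC against NC. Of all 9699 genes in that fit, 3795, 2029 and 3682 had an unadjusted p under 0.05 in these comparisons, in this order. Counts of this kind for the lists below are to be set beside these. Fgb was at 642, 1186 and 1968 FPKM in NC, APAP and AMSC on average.

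Cd14 (ENSMUSG00000051439, chromosome 18, 36725074 to 36726736 on GRCm38) had the widest range of the 10 genes. Its level was 1.37, 1.03 and 1.37 FPKM in NC replicates 1, 2 and 3. APAP replicates 1, 2 and 3 held 54.3, 72.5 and 125 FPKM. AMSC replicates 2, 3 and 4 held 12.5, 4.65 and 7.32 FPKM. The groups did not overlap in any pair, and the AMSC libraries lay between the NC and the APAP libraries. The lowest APAP library was well above the highest AMSC library, and the highest APAP library held 2.30 times the level of the lowest. In reads, Cd14 rested on 28 to 37 reads in the NC libraries, on 1144 to 2638 in the APAP libraries and on 95 to 313 in the AMSC libraries.

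The mean of Cd14 was 1.26 ± 0.196 FPKM in the NC, 83.9 ± 36.6 FPKM in the APAP and 8.17 ± 4.01 FPKM in the AMSC group (SD, n = 3). The APAP mean was 66.7 times the NC mean. On the scale of log2(FPKM + 1), which is used for all differences here and makes those of weakly expressed genes smaller, Cd14 was higher by 5.15 (SE 0.28) in APAP than in NC. It was lower in AMSC than in APAP by a log2 difference of -3.22 (SE 0.38), with an APAP mean 10.3 times the AMSC mean. Against NC, the AMSC group was still higher by 1.93 (SE 0.28), and its mean was 6.50 times the NC mean. These 3 differences share libraries, since each group enters 2 of them.

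**Figure D1:**
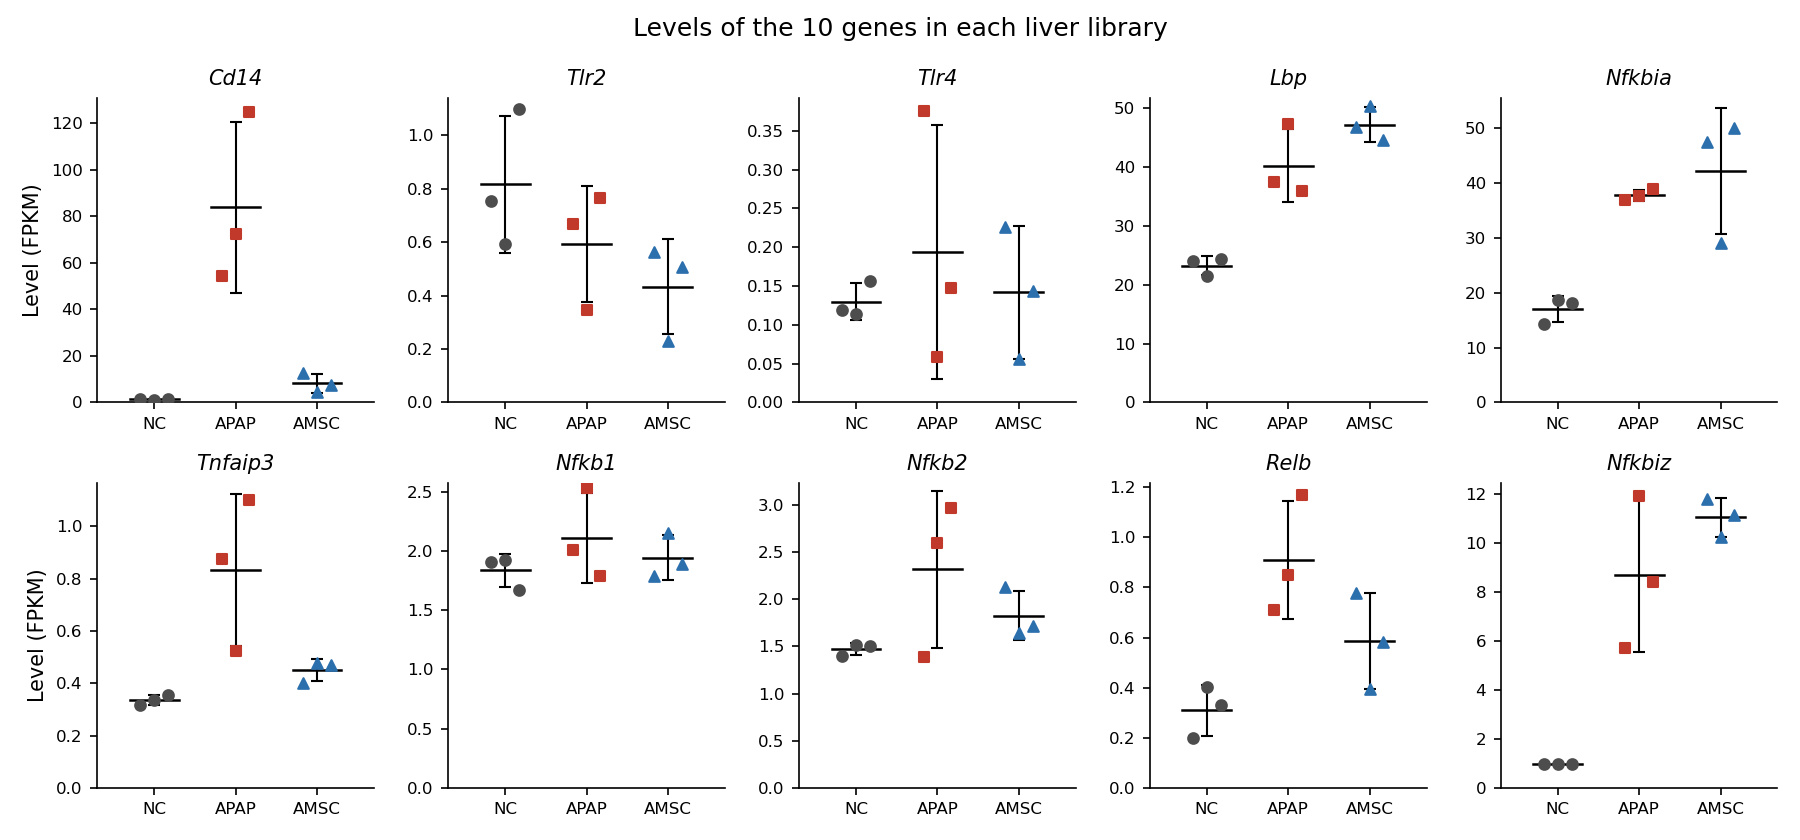
Levels in FPKM (vertical axes, linear and starting at 0) of the 10 genes in the 3 NC, 3 APAP and 3 AMSC livers; each point is a library in replicate order from left to right, the line is the group mean and the bar is 1 SD. Cd14 reached 54.3 to 125 FPKM in the APAP livers and 4.65 to 12.5 FPKM in the AMSC livers, while Nfkbiz was at 5.69 to 11.9 FPKM in the APAP and 10.2 to 11.8 FPKM in the AMSC livers.

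Markers of Kupffer cells, the resident macrophages of the liver, moved between the libraries too. The 7 markers (Clec4f, Timd4, Vsig4, Cd5l, Marco, Adgre1 and Csf1r, with Cd5l the most abundant) summed to 57.4, 51.7 and 106 FPKM in NC replicates 1, 2 and 3. Their sum was 157, 72.6 and 190 FPKM in APAP replicates 1, 2 and 3. In AMSC replicates 2, 3 and 4 it was 69.9, 44.8 and 43.2 FPKM. None of the 7 markers was at 0 in all libraries. By the limma fit described further on, 1 of 7 (Timd4) was called higher in APAP than in NC (log2 difference 1.02, adjusted p = 0.0497), a call that was lost without NC replicate 1 or 2 (adjusted p = 0.151 and 0.143) or APAP replicate 1 or 3 (0.108 and 0.135), in the fit of all genes above 0 (0.196), with quantile normalization (0.0601) and on levels scaled to reads on genes (0.0757). For AMSC against APAP no Kupffer marker was called by limma. An unadjusted p under 0.05 was seen for 6 of 7, and for 2029 of all 9699 genes tested. Without APAP replicate 2, the APAP library with the lowest sum, 6 of 7 were called lower there, and voom on all libraries called 1 (Csf1r). In bulk liver, fewer cells of a type and less RNA per cell cannot be told apart.

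The order of the libraries agreed in part between Cd14 and the sum of these markers. For both, APAP replicate 3 and AMSC replicate 2 were the highest and NC replicate 2 the lowest of their groups, while APAP replicate 1, the lowest APAP library for Cd14, came second in the marker sum. In APAP replicate 2 the marker sum of 72.6 FPKM lay within the NC range of 51.7 to 106 FPKM, and Cd14 stood at 72.5 FPKM there against at most 1.37 FPKM in NC. AMSC replicate 2 had nearly the same marker sum, 69.9 FPKM, and a Cd14 level of 12.5 FPKM. The level of Cd14 divided by the marker sum was 0.0239, 0.0199 and 0.0130 in the NC libraries. This ratio was 0.346, 0.9995 and 0.657 in APAP replicates 1, 2 and 3. It was 0.179, 0.104 and 0.169 in the AMSC libraries. As Cd14 was selected with its levels known, nothing is read from this ratio. NC replicate 3, which has the other date on its label, had the highest marker sum of its group and the Cd14 level of NC replicate 1. The part of Kupffer cells in the result for Cd14 was not tested.

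**Figure D2:**
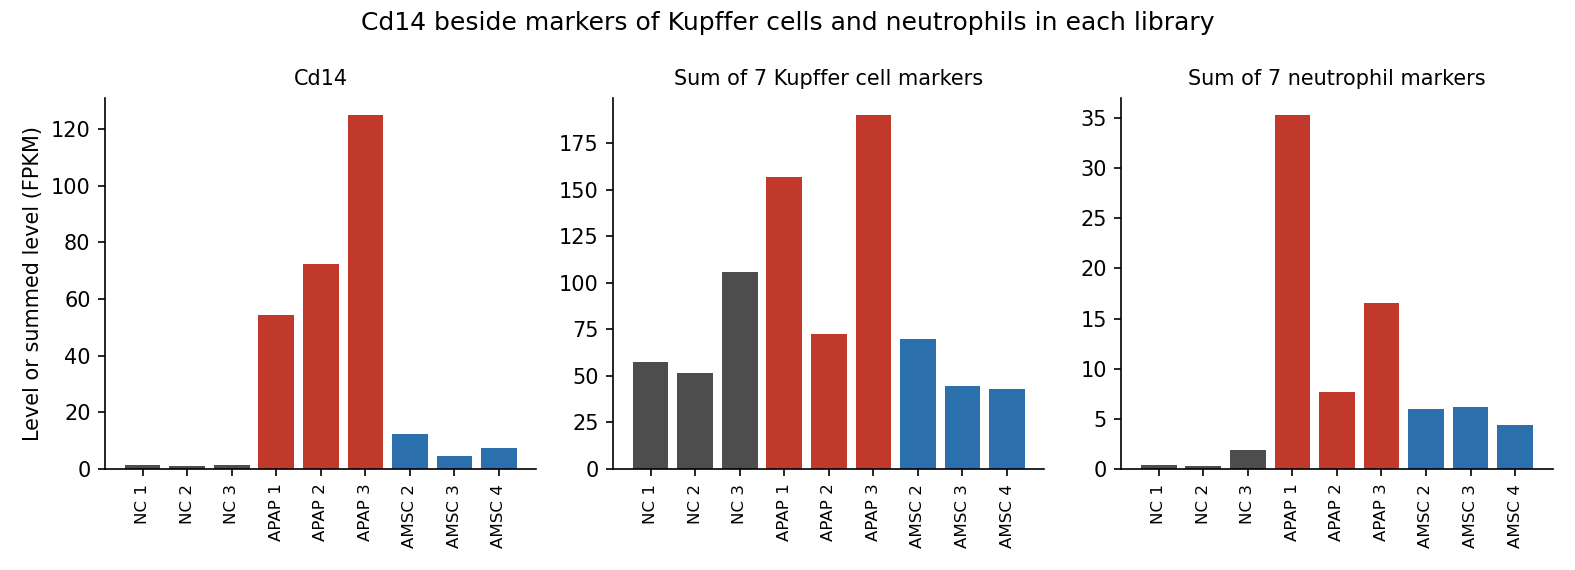
Cd14 and the summed levels of 7 Kupffer cell and 7 neutrophil markers, as bars in FPKM for each library (NC grey, APAP red, AMSC blue; linear axes from 0, each panel with its own scale). The Kupffer sum of APAP replicate 2 was 72.6 FPKM, near the 69.9 FPKM of AMSC replicate 2, with Cd14 at 72.5 and 12.5 FPKM.

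Neutrophil markers were low in all NC livers. The sum of the 7 markers (Ly6g, S100a8, S100a9, Retnlg, Csf3r, Cxcr2 and Mmp8, with S100a9 the most abundant) was 0.355, 0.330 and 1.94 FPKM in the NC libraries. It came to 35.3, 7.69 and 16.5 FPKM in APAP replicates 1, 2 and 3 and to 6.01, 6.17 and 4.38 FPKM in the AMSC libraries. S100a8, S100a9 and Retnlg, the 3 of 7 that passed the filter, had NC means of 0.308, 0.223 and 0.131 FPKM and passed only through the groups in which they are high, so that the filter favours a call in this direction. All 3 were called higher in APAP against NC, S100a9 and Retnlg again in the fit of all genes above 0 and S100a8 not (adjusted p = 0.0976). In AMSC against APAP 0 of the 3 were called by limma, with an unadjusted p under 0.05 for all 3 and 0 called by voom, and without APAP replicate 2 S100a9 and S100a8 were called lower. In AMSC against NC S100a9 and Retnlg were called higher, Retnlg not with quantile normalization (log2 difference 0.99), and voom called all 3. Ly6g, the defining marker, was at 0 in 7 of the 9 libraries and at most 0.0857 FPKM. Of the 6 monocyte markers (Ly6c2, Ccr2, Itgam, Lyz2, Fcgr1 and Chil3), Lyz2, which macrophages also express, made up most of the sum, with 57.3, 27.5 and 96.9 FPKM in APAP replicates 1, 2 and 3, while Ly6c2 stayed at or below 0.339 FPKM and Ccr2 at or below 0.129 FPKM. Lyz2 was at 28.6, 23.0 and 52.0 FPKM in the NC libraries. In the AMSC libraries it was at 26.4, 16.1 and 18.8 FPKM, below all APAP libraries as for Cd14. Lyz2 was not called by limma in AMSC against APAP (log2 difference -1.38), with an unadjusted p under 0.05. The order of the APAP libraries differed, since Cd14 was lowest in replicate 1 and the neutrophil sum was highest there. The part of neutrophil and monocyte markers in the result for Cd14 was not tested.

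The AMSC livers had received mesenchymal stromal cells, and markers of this cell type lay both above and below their NC levels there. The 7 markers of mesenchymal stromal cells (Pdgfra, Thy1, Col1a1, Col3a1, Nt5e, Ly6a and Eng, with Eng, also an endothelial gene, the most abundant) summed to 19.7, 16.3 and 16.6 FPKM in the AMSC libraries, against 15.9 to 29.0 FPKM in NC and 20.2 to 36.5 FPKM in APAP. Nt5e was at 1.003, 0.760 and 0.897 FPKM in the AMSC libraries, above all NC libraries (0.578 to 0.750 FPKM), while the APAP libraries spread from 0.216 to 0.971 FPKM. Pdgfra was at 1.44, 1.03 and 0.816 FPKM in AMSC and at 1.67, 0.918 and 0.935 FPKM in APAP, with all 6 above the NC libraries (0.245 to 0.638 FPKM). Eng was lower in every AMSC library (7.98 to 9.78 FPKM) than in every NC library (10.3 to 18.2 FPKM). Of the 4 that passed the filter, which Nt5e, Pdgfra and Thy1 did not, 0 were called by limma in AMSC against APAP and in AMSC against NC, with an unadjusted p under 0.05 for 2 and 1 and 0 called by voom, while voom on genes with a mean of at least 10 reads called Pdgfra higher in AMSC against NC. Ly6a was called higher in APAP against NC (1.002, adjusted p = 0.0152), a call that was lost without NC replicate 1 or 2 (log2 difference 0.92 and 0.84) or APAP replicate 3 (0.88), with quantile normalization (0.99), on levels scaled to reads on genes (0.80) and, by its adjusted p of 0.0871, in the fit of all genes above 0. The sums of the 7 stellate cell markers, led by Dcn, were 98.4, 46.1 and 79.3 FPKM in the APAP and 68.8, 40.0 and 50.1 FPKM in the AMSC libraries. In the NC libraries they were 33.4, 39.7 and 56.9 FPKM. Of these 7, 0 were called by limma with all libraries in any comparison. An unadjusted p under 0.05 was seen for 4 in APAP against NC, 1 in AMSC against APAP and 3 in AMSC against NC. The sums of the 5 cholangiocyte markers, led by Spp1, were 57.4, 97.3 and 86.7 FPKM in APAP and 50.5, 27.3 and 28.5 FPKM in AMSC, against 18.7, 39.6 and 18.7 FPKM in NC. The 4 B and T cell markers summed to 1.47 FPKM or less. Sox9, a transcription factor on the cholangiocyte list, was at 21.4, 33.1 and 25.6 FPKM in the APAP and at 2.95, 3.74 and 2.49 FPKM in the AMSC libraries, against 0.970 to 2.14 FPKM in NC. Sox9 was called higher in APAP against NC (3.50, adjusted p = 8.04e-05 by limma) and lower in AMSC against APAP (-2.76, adjusted p = 0.00115). Spp1 was called higher in APAP against NC (1.18, adjusted p = 0.0335), a call that was lost without NC replicate 1 or 3 (adjusted p = 0.110 and 0.0989) or APAP replicate 2 or 3 (0.108 and 0.0902), in the fit of all genes above 0 (0.155) and on levels scaled to reads on genes (0.0642). No cholangiocyte marker was called in AMSC against NC by limma on log2(FPKM + 1), with an unadjusted p under 0.05 for 2 of 4, while voom called Sox9. The part of these cells in the levels of Cd14 was not tested.

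Tlr4 (ENSMUSG00000039005, chromosome 4), the signalling receptor that CD14 serves, was close to the limit of measurement. NC replicates 1, 2 and 3 held 0.119, 0.114 and 0.157 FPKM. The APAP libraries held 0.376, 0.0581 and 0.147 FPKM, and the AMSC libraries 0.227, 0.0554 and 0.144 FPKM. All 3 groups overlapped, and the values rest on 4 to 28 reads per library. The widest scatter was within the APAP group, where replicate 1 held 6.47 times the level of replicate 2. The 7 markers of sinusoidal endothelial cells, which also carry TLR4 (Stab2, Clec4g, Lyve1, Kdr, Cdh5, Pecam1 and Fcgr2b, with Clec4g the most abundant and none at 0), were in the same order as Tlr4 in the APAP group, with sums of 65.9, 24.9 and 43.7 FPKM in replicates 1, 2 and 3. They were in another order than Tlr4 in the other groups, with 20.3, 25.7 and 43.4 FPKM in the NC libraries and 22.3, 21.0 and 22.5 FPKM in the AMSC libraries. Of the 7, 0 were called by limma on log2(FPKM + 1) with all libraries in any comparison, with an unadjusted p under 0.05 for 3, 5 and 2 of them in APAP against NC, AMSC against APAP and AMSC against NC. Without APAP replicate 2, where their sum was lowest in the APAP group, 2 were called in APAP against NC (Lyve1 and Pecam1) and 3 in AMSC against APAP (Clec4g, Fcgr2b and Cdh5). Lyve1 and Pecam1 were also called without NC replicate 3, and voom called 2, 1 and 0 in the 3 comparisons. The part of these cells in the scatter of Tlr4 was not tested.

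Tlr2 (ENSMUSG00000027995, chromosome 3), the receptor for bacterial lipoproteins, was also low. Its level was 0.756, 0.595 and 1.10 FPKM in NC replicates 1, 2 and 3. It was 0.668, 0.348 and 0.765 FPKM in the APAP libraries and 0.564, 0.230 and 0.508 FPKM in the AMSC libraries. The APAP libraries overlapped both other groups, and the AMSC libraries all lay below the NC libraries. The distance between the lowest NC and the highest AMSC library was small (31 and 27 reads). The log2 difference of AMSC against NC was -0.34 (SE 0.15) on 9 to 57 reads per library, and between -0.43 and -0.23 with 1 library left out. Within each group, the library with the lowest Tlr4 was also the library with the lowest Tlr2 (replicate 2 of NC, replicate 2 of APAP and replicate 3 of AMSC). For Tlr4, however, NC replicates 1 and 2 held 11 reads each, and the lowest APAP and AMSC libraries 4 each.

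Lbp (ENSMUSG00000016024, chromosome 2, 158306493 to 158332852), which encodes the carrier of lipopolysaccharide in plasma, was well expressed. NC replicates 1, 2 and 3 held 24.0, 21.4 and 24.4 FPKM. The level was 37.4, 47.3 and 36.0 FPKM in the APAP libraries. It was 46.7, 50.4 and 44.5 FPKM in the AMSC libraries. All APAP and AMSC libraries lay above all NC libraries, while the APAP and AMSC groups overlapped. The means were 23.3 ± 1.62, 40.2 ± 6.19 and 47.2 ± 2.96 FPKM in NC, APAP and AMSC (SD, n = 3). Lbp was higher by a log2 difference of 0.76 (SE 0.14) in APAP than in NC and of 0.99 (SE 0.10) in AMSC than in NC. For AMSC against APAP the difference was 0.23 (SE 0.14), and 0.35 without APAP replicate 2.

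Nfkbia (ENSMUSG00000021025, chromosome 12, 55489410 to 55492647) encodes the inhibitor IκBα and is a fast target of NF-κB. It was at 14.3, 18.7 and 18.2 FPKM in NC replicates 1, 2 and 3. The APAP libraries lay close together at 36.9, 37.6 and 38.9 FPKM. The AMSC libraries were at 47.5, 29.1 and 50.1 FPKM, with replicate 3 below and the other 2 above all APAP libraries. All APAP and AMSC values were above all NC values. The SD was 11.4 FPKM in AMSC and 0.991 FPKM in APAP, on 384 to 1214 reads per library. The log2 difference was 1.11 (SE 0.13) for APAP against NC and 1.23 (SE 0.21) for AMSC against NC. For AMSC against APAP it was 0.12 (SE 0.21), and it was 0.02, 0.36 and -0.02 without AMSC replicates 2, 3 and 4.

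Nfkbiz (ENSMUSG00000035356, chromosome 16, 55811375 to 55838899) encodes IκBζ, a nuclear protein of the IκB family that acts with NF-κB at a subset of its target genes. The NC libraries were at 0.955, 0.968 and 0.961 FPKM, within 1.01-fold of each other. The APAP libraries were at 5.69, 11.9 and 8.41 FPKM. The AMSC libraries were at 11.8, 10.2 and 11.1 FPKM. Nfkbiz was thus high in all 6 livers exposed to APAP, and the AMSC values lay in the upper part of the APAP range. The AMSC mean of 11.0 ± 0.788 FPKM was 11.5 times the NC mean of 0.962 ± 0.00625 FPKM, and the APAP mean of 8.66 ± 3.10 FPKM was 9.01 times it. The log2 difference was 2.25 (SE 0.22) for APAP against NC, 2.62 (SE 0.10) for AMSC against NC and 0.37 (SE 0.23) for AMSC against APAP. This last difference was 0.13 without APAP replicate 1, 0.60 without APAP replicate 2 and 0.12 with the replicate number as a block.

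Tnfaip3 (ENSMUSG00000019850, chromosome 10) encodes A20, an enzyme that edits ubiquitin chains and ends signalling to the IκB kinase. Its level was 0.315, 0.336 and 0.354 FPKM in NC replicates 1, 2 and 3. It was 0.877, 0.525 and 1.10 FPKM in the APAP libraries, and 0.401, 0.479 and 0.470 FPKM in the AMSC libraries. The groups did not overlap in any pair, with AMSC between NC and APAP as for Cd14. The distance between the lowest APAP and the highest AMSC library was small (47 and 45 reads). On means, APAP held 2.49 times the NC level and AMSC 1.34 times the NC level, on 38 to 107 reads per library. The log2 differences were 0.45 (SE 0.13) for APAP against NC, -0.33 (SE 0.14) for AMSC against APAP and 0.12 (SE 0.04) for AMSC against NC.

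Relb (ENSMUSG00000002983, chromosome 7), the subunit of the alternative NF-κB pathway, was at 0.201, 0.402 and 0.329 FPKM in NC replicates 1, 2 and 3. The APAP libraries held 0.710, 0.852 and 1.17 FPKM, all above NC. The AMSC libraries held 0.778, 0.396 and 0.582 FPKM and overlapped both other groups. The APAP mean was 2.93 times and the AMSC mean 1.89 times the NC mean, on 13 to 61 reads per library. The log2 differences were 0.54 (SE 0.12), -0.27 (SE 0.14) and 0.27 (SE 0.11) for APAP against NC, AMSC against APAP and AMSC against NC, the second at -0.17 without APAP replicate 3.

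Nfkb2 (ENSMUSG00000025225, chromosome 19, 46304737 to 46312090), which encodes the p100 precursor that partners RelB, was at 1.40, 1.51 and 1.50 FPKM in NC replicates 1, 2 and 3. APAP replicate 1 was at the NC level with 1.38 FPKM, while replicates 2 and 3 were at 2.60 and 2.96 FPKM. The AMSC libraries were at 2.12, 1.64 and 1.72 FPKM, all above NC. The log2 difference was 0.39 (SE 0.19) for APAP against NC, and it was 0.61 without APAP replicate 1, 0.24 without APAP replicate 3 and 0.22 on levels scaled to reads on genes. It was -0.20 (SE 0.20) for AMSC against APAP and 0.19 (SE 0.11) for AMSC against NC. Without APAP replicates 1, 2 and 3 the former was -0.42, -0.12 and -0.06, and without AMSC replicate 2 the latter was 0.12. With the replicate number as a block the former was -0.40, and on levels scaled to reads on genes the latter was 0.07. Nfkb2 overlaps Psd on the other strand, and Psd was at 0.419 FPKM or less.

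Nfkb1 (ENSMUSG00000028163, chromosome 3, 135584655 to 135691547), which encodes the p105 precursor of the p50 subunit, was at 1.91, 1.92 and 1.67 FPKM in NC replicates 1, 2 and 3. The APAP libraries were at 2.003, 2.53 and 1.79 FPKM and the AMSC libraries at 1.79, 2.15 and 1.89 FPKM. All groups overlapped. The log2 difference was 0.13 (SE 0.13) for APAP against NC and -0.07 (SE 0.13) for AMSC against APAP. With 1 library left out, the former lay between 0.03 and 0.20 and the latter between -0.15 and 0.02. On levels scaled to reads on genes, the former turned to -0.05. Nfkb1 rested on 290 to 401 reads per library. Gm43430, which lies within it on the same strand, was at 0.0191 FPKM or less.

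In the NC livers the order of the mean levels was Lbp, Nfkbia, Nfkb1, Nfkb2, Cd14, Nfkbiz, Tlr2, Tnfaip3, Relb and Tlr4. Neighbours in this order overlapped in their libraries for Nfkbiz and Tlr2 and for Tnfaip3 and Relb. In the APAP livers Cd14 came first, above Lbp in every library, followed by Lbp and Nfkbia, which overlapped, and by Nfkbiz. Below Nfkbiz, Nfkb2 and Nfkb1 overlapped, as did Relb, Tnfaip3, Tlr2 and Tlr4, each with the next. In the AMSC livers Lbp and Nfkbia came first and overlapped, followed by Nfkbiz and Cd14, which overlapped as well. Nfkb1 and Nfkb2 overlapped in the AMSC livers, and so did Relb with Tnfaip3 and Tnfaip3 with Tlr2, while Tlr4 was lowest in all 3 groups by its mean.

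The APAP libraries were not in the same order for all genes. Replicate 3 had the highest level of Cd14, Tlr2, Nfkbia, Tnfaip3, Nfkb2 and Relb. Replicate 2 had the highest level of Lbp, Nfkb1 and Nfkbiz, and replicate 1 that of Tlr4. Replicate 1 had the lowest level of Cd14, Nfkbia, Nfkb2, Relb and Nfkbiz.

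For a view over all genes, limma was fitted to the 9699 genes whose mean in the 9 libraries was 1 FPKM or more, and a gene was counted as called where its adjusted p did not exceed 0.05 and its log2 difference was 1 or more in size. Of the 10 genes, 6 passed the filter (Cd14, Lbp, Nfkbia, Nfkb1, Nfkb2 and Nfkbiz) and 4 did not (Tlr2, Tlr4, Tnfaip3 and Relb). The log2 differences given above for Tlr2, Tnfaip3 and Relb come from a fit of all genes above 0. Nfkbiz, with an NC mean of 0.962 FPKM, passed only through its APAP and AMSC libraries and so had to differ. Calls of the 6 genes are given to place them in the fit and are no test of them, since the genes were selected with these values known. In APAP against NC, 3 of the 6 (Cd14, Nfkbiz and Nfkbia) were called higher and 0 were called lower, where 5.09% of all genes tested were called higher and 2.80% lower. In AMSC against APAP, Cd14 was called lower and 0 of the 6 higher, beside 1.22% and 0.742% of all genes tested. In AMSC against NC, Cd14, Nfkbiz and Nfkbia were called higher and 0 lower, beside 3.92% and 2.09%. The balance of these shares depends on the scaling. As deposited, 494 genes were called higher and 272 lower in APAP against NC and 380 and 203 in AMSC against NC, and scaled to reads on genes these counts were 361 and 473, and 311 and 343. For AMSC against APAP they were 72 and 118, and 88 and 102.

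The groups of libraries did not overlap for 4 of these 6 genes in APAP against NC (43.2% of all genes tested), for 1 in AMSC against APAP (27.0%) and for 5 in AMSC against NC (43.5%). For the same reason nothing is read from any of these counts. The call of Nfkbia in APAP against NC was lost without NC replicate 1, where its log2 difference was 0.998, and on levels scaled to reads on genes (0.86). Its call in AMSC against NC was lost with the replicate number as a block (0.98). It was also lost there in the fit of all genes above 0, by its adjusted p at an equal difference (1.23). Lbp, at 0.99 in AMSC against NC, was called without NC replicate 1 (1.01), NC replicate 3 (1.03) or AMSC replicate 4 (1.03). It was also called with a pseudocount of 0.1 (1.02), with the replicate number as a block (1.05) and by voom (1.02). Without NC replicate 3, the library with the other date, the log2 difference of Cd14 was 5.19 for APAP against NC and 1.97 for AMSC against NC. Cd14 in AMSC against APAP was not called in the fit of all 24849 genes above 0, in which 21 genes were called in all, although its log2 difference was the same there (-3.22).

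**Figure D3:**
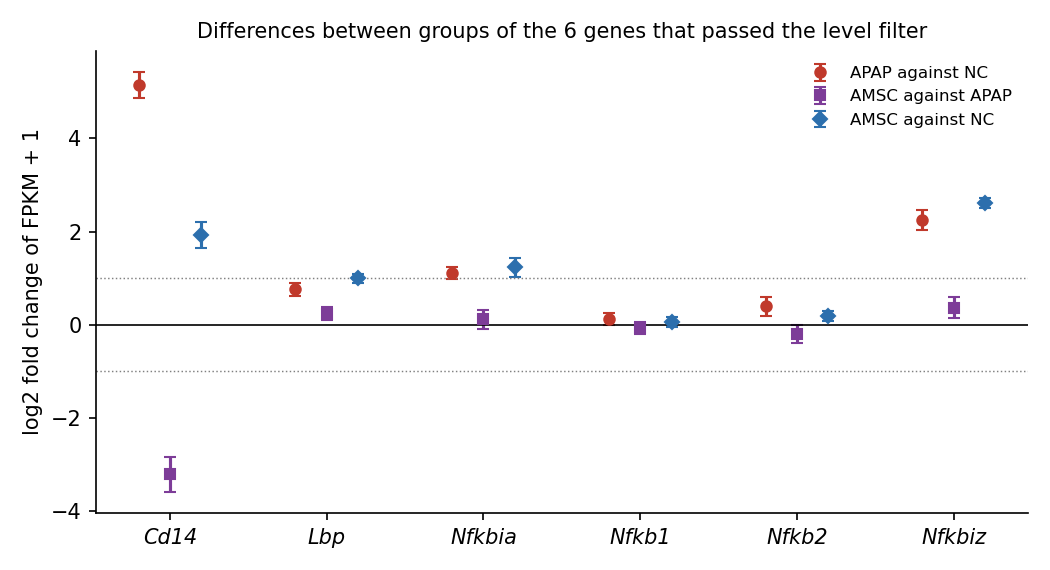
Differences between groups in log2(FPKM + 1) (vertical axis) of the 6 genes that passed the filter, with bars of 1 SE; red circles are APAP against NC, purple squares AMSC against APAP and blue diamonds AMSC against NC, and dotted lines mark a difference of 1. Cd14 was at -3.22 in AMSC against APAP, while Nfkbia and Nfkbiz were at 0.12 and 0.37.

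The genes whose course over the 9 libraries was most like that of Cd14 were sought among the genes tested, by the root mean square difference of log2(FPKM + 1) after subtraction of each gene's NC mean. They were Dusp5 (0.64), a phosphatase of MAP kinases, Hilpda (0.75), a protein of lipid droplets induced by hypoxia, Tiparp (0.85), a target of the aryl hydrocarbon receptor, Gadd45a (0.88), a stress gene, and the small nuclear RNA Rn7sk (0.91). Dusp5 was at 18.7, 80.8 and 58.0 FPKM in APAP replicates 1, 2 and 3 and at 2.09, 2.99 and 2.99 FPKM in the AMSC libraries. Hilpda was at 52.7, 212 and 189 FPKM in the APAP libraries and at 4.34, 2.93 and 8.63 FPKM in the AMSC libraries. As these genes were sought for their likeness to Cd14, nothing is read from the course they share. None of the 5 is on the lists of toll-like receptor, NF-κB or cell type genes used here.

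The rest of the pathway was covered by 91 further genes in 9 lists, of which 62 passed the filter. In APAP against NC, 9 of the 62 were called higher and 1 lower, beside 5.09% and 2.80% of all genes tested, with a median log2 difference of 0.23 where the median over all genes tested was -0.004. In AMSC against APAP, 3 were called higher and 2 lower, beside 0.742% and 1.22%, with a median of -0.003 where that of all genes was 0.01. These 5 calls became 0 in the fit of all genes above 0, 3 without APAP replicate 1 or 3 and 2 without AMSC replicate 2, 3 or 4. In AMSC against NC, 10 were called higher and 1 lower, beside 3.92% and 2.09%, with a median of 0.25 against 0.02. As for the 10 genes, the comparisons share libraries.

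On the receptor side, 9 of 10 other toll-like receptor genes were below the filter. Among them, voom on genes with a mean of at least 10 reads called Tlr5, the receptor for flagellin, lower (means of 1.33 FPKM in NC and 0.324 FPKM in APAP) and Tlr8 higher (0.114 and 0.513 FPKM) in APAP against NC, and Tlr3 lower in AMSC against NC (0.974 and 0.447 FPKM), while the fit of all genes above 0 called none of these 3. The exception, Tlr12, a receptor for profilin of protozoa, passed only through the NC libraries, where it is high, so that the filter favours a call in this direction. It fell from 2.43 FPKM in NC to 0.306 FPKM in APAP (log2 difference -1.40, adjusted p = 0.00263 by limma, lower in 3 of 3 libraries) and was called again in the fit of all genes above 0 (adjusted p = 0.0277). It was at 0.610 FPKM in AMSC (-1.09 against NC, adjusted p = 0.00302), a call that was lost without NC replicate 3 (-0.94) or AMSC replicate 3 (-0.96). No gene among the receptor partners (3 of 6 tested), the adaptors and IRAK and TRAF proteins (10 of 13) and the brakes on toll-like receptors (3 of 5) was called by limma on log2(FPKM + 1) with a pseudocount of 1 in any comparison. Peli1, on the adaptor list, was called in APAP against NC with a pseudocount of 0.1 and by voom. An unadjusted p under 0.05 was seen in APAP against NC for 1, 4 and 1 of these tested genes, in AMSC against APAP for 1, 2 and 1, and in AMSC against NC for 2, 4 and 1. Over all 9699 genes tested, 3795, 2029 and 3682 had an unadjusted p under 0.05 in these comparisons.

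Among the inputs from TNF and IL-1, Il1r1, the signalling receptor of IL-1, rose in all 3 comparisons. Its mean was 3.37 FPKM in NC, 12.1 FPKM in APAP and 53.0 FPKM in AMSC, and every AMSC library (45.1 to 68.8 FPKM) was above every APAP library (8.82 to 17.2 FPKM). The log2 differences were 1.56 for APAP against NC (adjusted p = 0.00432 by limma), 2.06 for AMSC against APAP (adjusted p = 0.00956, and 0.105, not called, in the fit of all genes above 0) and 3.62 for AMSC against NC (adjusted p = 2.12e-05). Tnfrsf1a, the main receptor of TNF, was called in AMSC against NC (1.32, adjusted p = 0.000808) and Tnfrsf1b in APAP against NC (1.16, adjusted p = 0.00495), the latter not on levels scaled to reads on genes (0.93). Of the 11 genes of the IκB kinase and its upstream kinases, Map3k8 rose in APAP against NC (1.51, adjusted p = 0.00219). With an NC mean of 0.233 FPKM it passed the filter only through the other groups, which favours this direction, and it was called again in the fit of all genes above 0 (adjusted p = 0.0257). Ikbke was at 2.17, 0.990 and 0.718 FPKM and Map3k14 at 0.448, 1.65 and 1.18 FPKM in NC, APAP and AMSC. Neither was called as reported (-0.66 and 0.87 in APAP against NC). In both comparisons against NC, a pseudocount of 0.1 and voom called both genes. On levels scaled to reads on genes, Ikbke was called in AMSC against NC. Ikbkg, the regulatory subunit of the kinase, rose in AMSC against APAP (1.06, adjusted p = 0.0492), but this call was lost whichever of the 6 libraries was left out, with adjusted p-values of 0.0852, 0.0548 and 0.134 without APAP replicates 1, 2 and 3 and of 0.103, 0.116 and 0.0922 without AMSC replicates 2, 3 and 4, and in the fit of all genes above 0 (0.204), with a pseudocount of 0.1 (0.0502), with a mean of at least 5 FPKM (0.0501) and with quantile normalization (0.0579). Ikbkg and Tab2 were called higher in AMSC against NC (1.29, adjusted p = 0.00292, and 1.02, adjusted p = 0.000319), and Tab2 fell short without NC replicate 2 (0.98), with quantile normalization (0.99) and on levels scaled to reads on genes (0.85).

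Bcl3, which encodes a nuclear IκB protein related to the product of Nfkbiz, was at 17.1 FPKM in NC, 11.9 FPKM in APAP and 42.4 FPKM in AMSC, and rose in AMSC against APAP (1.73, adjusted p = 0.00429 by limma, and 0.0598, not called, in the fit of all genes above 0) and against NC (1.26, adjusted p = 0.00186). Gm16174, on the other strand of Bcl3, was at 0.968, 0.262 and 2.17 FPKM, and reads of the pair cannot be told apart without strand. Tnip2, a feedback inhibitor that binds A20, rose in AMSC against NC (1.30, adjusted p = 0.000361). None of the 8 feedback inhibitors tested was called in APAP against NC or in AMSC against APAP by limma on log2(FPKM + 1) with all libraries, with an unadjusted p under 0.05 for 4 and 0 of them. Tnip2 and Zc3h12a were called in APAP against NC with a pseudocount of 0.1 and by voom, and Tnip2 also without APAP replicate 1, while voom called 0 in AMSC against APAP.

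Of 20 other targets of NF-κB, 14 were tested. In APAP against NC, 6 of the 14 were called higher and 0 lower, where 5.09% and 2.80% of all genes tested were, among them Gadd45b (4.62, adjusted p = 4.67e-06 by limma), Cxcl1 (3.56, adjusted p = 0.00663), Ier3 (2.75, adjusted p = 0.000502) and Il1b (1.81, adjusted p = 0.0236), with Vcam1 and Ccl2 as the others. All 6 had NC means below 1 FPKM and passed the filter only through the groups in which they are high, so that the filter favours this direction. In the fit of all genes above 0, Gadd45b, Ier3 and Vcam1 were called again, and Cxcl1, Il1b and Ccl2 were not (adjusted p = 0.0646, 0.132 and 0.0524). This fit also called 2 of the 6 targets below the filter, Cd83 (1.14, adjusted p = 0.0351) and Cxcl2 (1.60, adjusted p = 0.0441). Cd83 was at 0.282, 1.83 and 0.199 FPKM and Cxcl2 at 0.0283, 2.29 and 0.130 FPKM in NC, APAP and AMSC, and in AMSC against APAP both were called lower by voom on genes with a mean of at least 10 reads and not in the fit of all genes above 0 (adjusted p = 0.0963 and 0.159). Gadd45b was at 0.921, 46.5 and 38.5 FPKM in NC, APAP and AMSC, and Cxcl1, a chemokine for neutrophils, at 0.983, 29.6 and 34.7 FPKM. Both were called higher in AMSC against NC (4.33, adjusted p = 5.47e-06, and 4.17, adjusted p = 2.29e-06) and neither was called in AMSC against APAP (-0.29, SE 0.22, and 0.61, SE 0.64). Cxcl1 was at 6.04, 43.7 and 38.9 FPKM in APAP replicates 1, 2 and 3 and at 40.3, 35.4 and 28.5 FPKM in the AMSC libraries, and without APAP replicate 1 its difference turned to -0.26. That of Gadd45b was -0.06 without AMSC replicate 3. Ier3 and Il1b were called lower in AMSC against APAP (-1.50, adjusted p = 0.0259, and -2.19, adjusted p = 0.0367). Neither was called in the fit of all genes above 0 (adjusted p = 0.148 and 0.193), and Il1b passed the filter only through the APAP libraries, where it is high, which favours this direction. Of the 14, 5 were lower in every AMSC than in every APAP library and 0 were higher in this way, where the 2 groups did not overlap for 27.0% of all genes tested, and whether the targets differ from each other in this comparison was not tested. Il1b was at 5.63, 1.48 and 7.96 FPKM in APAP replicates 1, 2 and 3, the order of the Kupffer marker sum, and at 0.264, 0.0403 and 0.174 FPKM in the AMSC libraries. The AMSC values rest on 8, 1 and 5 reads. Their order differed from that of the Kupffer marker sum in AMSC (69.9, 44.8 and 43.2 FPKM). The part of Kupffer cells in the result for Il1b was not tested.

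The calls of Ier3 and Il1b in AMSC against APAP were lost without single libraries by their adjusted p, while the log2 differences stayed past 1 in size. Without AMSC replicate 2, 3 or 4, Ier3 was at -1.56, -1.53 and -1.40 (adjusted p = 0.0741, 0.0911 and 0.101). Il1b was at -2.26, -2.12 and -2.20 without these libraries (adjusted p = 0.0885, 0.128 and 0.117), and at -2.03 and -1.81 without APAP replicate 1 or 3 (adjusted p = 0.0703 and 0.0861). Voom on all libraries did not call Il1b in this comparison either (-4.76, adjusted p = 0.0583). Voom on genes with a mean of at least 10 reads called it, as did limma with a pseudocount of 0.1 or quantile normalization. In APAP against NC, the adjusted p of Il1b was 0.0701 without NC replicate 1, 0.0837 without NC replicate 2, 0.0549 without APAP replicate 1 and 0.0617 without APAP replicate 3. In AMSC against NC, Ier3 (1.26, adjusted p = 0.00105) and Vcam1 (1.03, adjusted p = 0.0045) were called higher, and Vcam1 fell short without NC replicate 1 (0.94), NC replicate 2 (0.97) or AMSC replicate 2 (0.88), with quantile normalization (0.96) and on levels scaled to reads on genes (0.93).

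The promoters of the 10 genes were read for the binding sequence of NF-κB where a sequence was at hand. Windows of 300 bases, 250 of them before the start of transcription, were at hand from RefSeq (GRCm38.p6) for 4 of the 10 genes, namely Tlr2, Tnfaip3, Nfkbia and Nfkb2. The κB consensus, searched on both strands, had a match in 6 of the 7 windows of these genes, with at least 1 in each gene. Of the 3 windows of Nfkb2, 2 overlap and share a match, so the 7 are not separate. The motif had a match in 4.51% of all 32851 windows of this length, and 5.14% of the 27025 genes with a window had a match in at least 1. These 4 genes were selected by name from the NF-κB pathway and have 7 windows, where genes have 1.22 on average. Nothing is therefore read from the counts of matches. A match is a run of letters and does not show that NF-κB binds there. The 250 bases before the start of Nfkbia (chr12:55492648-55492897, minus strand), shown because Nfkbia was high in all livers given APAP, hold 1 match, whose first base lies 29 bases before the start and which is in capitals (5′ to 3′ on the strand of the gene):
Nfkbia: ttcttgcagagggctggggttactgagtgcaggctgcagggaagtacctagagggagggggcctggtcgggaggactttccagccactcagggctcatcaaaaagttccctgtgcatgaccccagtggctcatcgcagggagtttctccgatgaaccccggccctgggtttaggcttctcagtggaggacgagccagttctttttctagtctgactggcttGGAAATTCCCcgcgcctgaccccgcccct

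For the other 3 genes, 1 match before the start of a RefSeq window's transcript, chosen after the matches were seen, is shown in the same way with its flanks to set the genes side by side. The match of Nfkb2 is at chr19:46304698-46304707 on the plus strand. That of Tlr2 is at chr3:83841771-83841780 on the minus strand and that of Tnfaip3 at chr10:19015413-19015422 on the minus strand. Those of Nfkb2 and Tlr2 match on both strands and overlap a further match shifted by 1 base. The RefSeq start of Tnfaip3 lies 247 bases inside the gene as the deposited table has it, so that its match is within that gene, and the RefSeq start of Tlr2 lies 159 bases inside, with the match before both starts.
Nfkb2: atcgtcacGGGAATTCCCcccctcgg
Tlr2: gacacctgGGGAATTCCCacacggag
Tnfaip3: tttccatcGGAAATCCCCct
Tlr2 held this match at a level of 0.348 to 0.765 FPKM in the APAP livers, in which Nfkbia was at 36.9 to 38.9 FPKM.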

How the data were processed

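Per the labels, RNA was extracted with the RNeasy kit and libraries were made with the SMARTER mRNA-Seq kit, and the submitters' processing notes name the builds GRCm38 and mm10. The authors deposited 1 table of FPKM with gene lengths and coordinates. The aligner, the counting program and whether strand was used are not given in the sources used here. Start and end were equal to those of GENCODE vM21 (GRCm38) for 98.33% of 54409 shared identifiers. Whole reads per gene were recovered from FPKM and gene length (100.0000% of values within 0.1 of a whole read), and 1 read on a gene of 1 kilobase stood for 0.0578 to 0.0807 FPKM. The divisors of the libraries were proportional to size factors from the median ratio of each library's reads over genes above 0 in all libraries.

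Groups were taken from the sample labels. limma 3.58.1 (R 4.3.3; lmFit, then eBayes with a trend) was run on log2(FPKM + 1) for the 2 groups compared, and p-values were adjusted over 9699 genes by the Benjamini-Hochberg method. They measure the spread between the livers of this experiment. Plots and tables were made in Python 3.11.15 with matplotlib 3.10.9, numpy 2.4.6 and pandas 2.3.3. The fit was tested on simulated data, in which spread was set alike for all genes and the changes lay well past the threshold. Calls near the threshold were not covered by it. The 10 genes and all lists were chosen with earlier results of these data known. Outside the 10 genes, those named were up to 4 called genes of each pathway list and comparison with the largest difference, the most abundant gene of each marker list and the 5 genes most like Cd14, and markers and other genes named beyond this were chosen after their values were seen.

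APAP and NC libraries of the same number deviated together from their group means (correlations across genes of 0.213, 0.160 and 0.378 for replicates 1, 2 and 3), so these numbers were taken as pairs in an alternative fit. The title of NC replicate 3 has the number 1 beside its other date, so its pair rests on the number in its description alone. Libraries of different numbers correlated as much in places (AMSC replicate 2 with APAP replicate 3, 0.409, and with NC replicate 3, 0.382). Further alternatives were another pseudocount (0.1), other filters (every gene above 0, or a mean of 5 FPKM or more), quantile normalization, 1 fit of all 9 libraries, voom on the recovered reads, and each library left out. Voom on genes of 10 or more reads on average and levels scaled to reads on genes were added after seeing the data.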

Additional observations from a re-analysis of the deposited data

How the results depend on the processing

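The 10 genes were selected with these values known, so their calls are given as a description. In APAP against NC, 3 were called as reported and under all alternatives except without NC replicate 1 and on levels scaled to reads on genes, where 2 were, and voom on genes of at least 10 reads, where 5 were. In AMSC against APAP, Cd14 was called under all alternatives except the fit of every gene above 0, where 0 of the 10 genes and 0 of the 91 other pathway genes were called by limma, although 26 of these 91 had an unadjusted p under 0.05 and voom called 5 of 62. Of all 24849 genes above 0, 3280 had an unadjusted p under 0.05 in that limma fit. In AMSC against NC the number called was 2 to 4, since Lbp (0.99) lay near the threshold of 1 and Nfkbia lost the call in the fit of every gene above 0, by its adjusted p at an equal difference (1.23), and with the replicate block (0.98). Voom on genes with a mean of at least 10 reads, chosen after seeing the data, took in all 10 genes and called 5 of them in APAP against NC, with Relb (1.55) and Tnfaip3 (1.26) added. Of 264 log2 differences of the 6 genes under alternatives, 0 of the called ones and 5 of the others changed sign (Nfkbia in AMSC against APAP, from 0.12 to -0.04 with the replicate block and -0.02 without AMSC replicate 4, and Nfkb1 there, from -0.07 to 0.02 without APAP replicate 2; scaled to reads on genes, Nfkb1 went from 0.13 to -0.05 in APAP against NC and from 0.05 to -0.08 in AMSC against NC). Of the 264, 22 moved by more than the spread between replicates. They were those of Cd14, Nfkbiz and Nfkb2 with a pseudocount of 0.1 or voom and, scaled to reads on genes, those of Lbp (0.51), Nfkbia and Nfkb1 in APAP against NC and of Lbp (0.80), Nfkb1, Nfkb2 and Nfkbiz in AMSC against NC.

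The counts over all genes moved more. In APAP against NC they were 766 as reported, 478 with a mean of at least 5 FPKM, 1197 with voom and 1821 with voom on genes of at least 10 reads. In AMSC against APAP they were 190 as reported, 21 with every gene above 0, 102 with a mean of at least 5 FPKM, 296 with voom, 416 with voom on genes of at least 10 reads, and 90 to 229 with a library left out (105 without APAP replicate 3, and 101, 90 and 94 without AMSC replicates 2, 3 and 4). In AMSC against NC they were 583 as reported, 915 with a pseudocount of 0.1, 968 with voom and 1374 with voom on genes of at least 10 reads. Of the other pathway genes, 10, 5 and 11 were called in APAP against NC, AMSC against APAP and AMSC against NC. These counts were 16 and 17 in the comparisons against NC with a pseudocount of 0.1 and again with voom, 4, 2 and 7 with a mean of at least 5 FPKM, 21, 8 and 19 with voom on genes of at least 10 reads, and 2 to 5 with a library left out in AMSC against APAP. A filter at 5 FPKM tests fewer genes, and for the other settings the cause was not tested.

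With the replicate block, 781 genes were called in APAP against NC, and no call among the 10 genes or the other pathway genes changed there. AMSC libraries share only the numbers 2 and 3 with the other groups, and same-numbered libraries did not deviate together (correlations of -0.104 and -0.293 with APAP, -0.199 and -0.309 with NC). The replicate block then gave 335 genes in AMSC against APAP and 611 in AMSC against NC, where Lbp gained the call (1.05). Tlr4 rests on 4 to 28 reads per library, and Tlr2, Relb and Tnfaip3 on 9 to 107.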
